A study of Mus musculus with 20 samples.

Results

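Vldlr, Lrp1, Scarb1, Apoe, Pltp and Abca1 encode proteins that carry lipoproteins and the vitamin E bound to them into, between and out of cells. They were taken by symbol: every probe set of the array whose only gene symbol in the platform annotation is a member was used, which gave 9 of the 12488 probe sets for 6 genes. The rule itself uses no measured value, though earlier results of these data were known when the genes were picked. Of the 9 probe sets, 8 were bright enough to be tested. The exception was the second Apoe probe set, whose mean stood at the 16.9th percentile of all probe sets that are not controls, within the dimmest 40% that were left out.

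The series holds 20 hearts of male B6C3F1 mice, hybrids of the C57BL/6 (B6) and C3H strains, in 4 groups of 5, each heart on its own oligonucleotide array. Alpha-plus-gamma hearts came from mice of 30 months whose diet held 500 mg/kg of alpha- and 500 mg/kg of gamma-tocopherol from 15 months of age. Alpha hearts came from mice of 30 months fed 1000 mg/kg alpha-tocopherol from the same age. Old controls were 30 months and young controls 5 months of age, both on the control diet. All animals were housed singly, and 18 are labelled first-generation (F1) hybrids; old controls 1 and 4 are labelled hybrids without that mark. Alpha- and gamma-tocopherol are vitamin E compounds, and alpha carries 1 more methyl group on its ring.

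Tocopherols are fat-soluble and travel in blood on lipoproteins, the particles that also carry cholesterol and triglyceride. Apoe, apolipoprotein E, is a surface protein of these particles and the ligand of endocytic receptors, among them Vldlr and Lrp1. Pltp moves phospholipid and tocopherol between particles, Scarb1 takes lipid from high-density lipoprotein, and Abca1 exports cholesterol, phospholipid and tocopherol from cells. The heart takes much of its fatty acid fuel from triglyceride-rich particles, and Vldlr works beside lipoprotein lipase in that uptake.

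Promoters are shown for Vldlr, the gene with a called change below, and for Abca1, whose probe sets followed each other most closely. The sequences are RefSeq's for build GRCm38.p6, 250 bases that end just before an annotated start, 5′ to 3′ on the gene's strand. Capitals mark matches on either strand to motifs searched by their letters: the E-box CACGTG, the GC box GGGCGG, the CCAAT box CCAAT, the TATA box TATAAA, the hexamer AGGTCA repeated after 1 base of any kind, and GGTNA followed after 5 bases by GGTCA, a loose form of the repeat bound by liver X receptors.
Vldlr, first start, chr19:27216234-27216483, plus strand: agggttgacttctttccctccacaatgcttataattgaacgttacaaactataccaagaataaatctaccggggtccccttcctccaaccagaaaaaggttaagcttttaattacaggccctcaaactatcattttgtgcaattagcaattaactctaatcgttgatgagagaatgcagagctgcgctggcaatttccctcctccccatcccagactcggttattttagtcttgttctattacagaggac
Vldlr, second start, chr19:27216770-27217019, plus strand: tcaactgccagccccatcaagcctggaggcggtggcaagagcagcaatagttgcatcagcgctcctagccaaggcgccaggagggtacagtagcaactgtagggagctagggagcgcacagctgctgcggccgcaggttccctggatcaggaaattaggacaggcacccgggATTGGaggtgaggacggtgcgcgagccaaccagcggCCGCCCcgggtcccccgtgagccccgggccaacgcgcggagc
Abca1, chr4:53159896-53160145, minus strand: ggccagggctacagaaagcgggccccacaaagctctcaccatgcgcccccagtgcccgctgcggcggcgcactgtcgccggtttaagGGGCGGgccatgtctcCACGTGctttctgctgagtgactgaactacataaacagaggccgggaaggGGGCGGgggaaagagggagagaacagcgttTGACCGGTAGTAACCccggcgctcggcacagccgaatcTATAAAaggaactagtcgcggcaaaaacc
The first Vldlr window held no match. In the second, a CCAAT box lay at -78 to -74 and a GC box at -42 to -37, both on the minus strand. The Abca1 window held 2 GC boxes, an E-box at -147 to -142, the loose repeat on the minus strand at -67 to -53 and a TATA box at -29 to -24; none of these overlapped. Of 32851 mouse promoter windows of this length, 33.8% held a CCAAT box, 32.7% a GC box, 12.4% a TATA box, 6.02% the E-box, 0.177% the loose repeat and 0.0335% the repeat spaced by 1 base. A match is a description of the letters only.

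The deposited values are linear intensities, and a change is a difference of mean log2(intensity + 58), given with its standard error; the added 58 makes folds of dim probe sets too small. Tests were made with limma, p-values were adjusted over all 7453 tested probe sets by the Benjamini-Hochberg method, and a change was called where the adjusted p was below 0.05. The number of arrays limits the precision, and the median standard error of a difference over all probe sets was 0.179. Heart muscle identity was checked with Myh6, Tnnt2, Tnni3 and other muscle genes, among them Ckm, Mb and Ryr2. The 8 of 9 such markers on the array lay at or above the 94.6th percentile of mean level. Spiked-in bacterial hybridization controls had a mean log2 level of 12.39 to 13.32 in alpha-plus-gamma arrays, 13.32 to 13.78 in alpha arrays, 12.55 to 12.92 in old controls and 12.51 to 13.04 in young controls. The 18S ribosomal RNA level was 9.90 to 11.98, 12.21 to 12.74, 10.16 to 11.23 and 10.13 to 10.77 in the same groups. All 5 alpha arrays thus lay above the other 15 arrays in both measures, in the first by a narrow margin, and the part of this in the alpha-tocopherol comparison was tested only by taking each measure as a covariate.

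Vldlr, the very low density lipoprotein receptor, was lower in old than in young control hearts, and it was the only member with a called change in any of the 4 comparisons. Its brighter probe set (96534_at) read 644, 872, 872, 591 and 970.3 in old control hearts, against 1235, 1272, 1207, 1712 and 2129 in young control hearts. Every old control lay below every young control; 7.02% of all tested probe sets separated these groups in this way. The level in old control hearts was 0.545 times that in young control hearts (change -0.88 ± 0.17, 95% interval -1.23 to -0.52, adjusted p = 0.00331 from limma). Of all tested probe sets, 4.94% were called with age, 2.20% as lower; this Vldlr probe set ranked 92 by p-value among them. In bulk tissue, fewer cells of a type and less RNA per cell cannot be told apart.

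The second Vldlr probe set (160865_at) was dimmer and did not pass. It read 550.2, 552, 466, 395 and 708 in old control hearts, against 739, 573, 524, 679.6 and 929 in young control hearts. The groups overlapped, with 2 of 5 old controls below every young control. Its change with age was -0.33 ± 0.24 (95% interval -0.82 to 0.16, adjusted p = 0.518 from limma). Over the 20 arrays the pair correlated at r = 0.39, and at 0.34 after group means were subtracted, as a description of values from the same arrays.

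The Vldlr call rested partly on old controls 1 and 4, which had the lowest values of their group. Without both, the change of the brighter probe set was -0.67 ± 0.19 (adjusted p = 0.0630 from limma), no longer called, and the 3 old controls left still lay below every young control. With any 1 animal left out the change stayed called, between -0.95 and -0.75. Adipocyte markers were summed beside it: 6 of 8 such markers on the array came to 29600.0 to 44070 in alpha-plus-gamma hearts, 36873 to 48507 in alpha hearts, 18793 to 31624 in old controls and 42796 to 52936 in young controls. Alpha hearts, whose Vldlr values of 602 to 897 lay among those of the old controls, thus lay above every old control in this sum. With age Adipoq changed by -1.61 ± 0.56, Lep by -0.61 ± 0.36 and Fabp4 by 0.16 ± 0.18, none of them called. Pnpla2, a triglyceride lipase that heart muscle also makes, held most of the sum. It was the 1 of 4 tested adipocyte genes called with age (-1.13 ± 0.14). The other 5 markers, a sum chosen after seeing the data, came to 5143 to 13905 in alpha-plus-gamma hearts, 4668 to 10940 in alpha hearts, 5351 to 6542 in old controls and 8210 to 11580 in young controls. The lowest values of Adipoq, Lep and Fabp4 over all arrays were 364, 334 and 1226. Retn and Cidec were dimmer, with lowest values of 67.4 and 28.3, and none of the 5 was at 0. The part of adipocyte RNA in the Vldlr change was not tested.

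**Figure D1:**
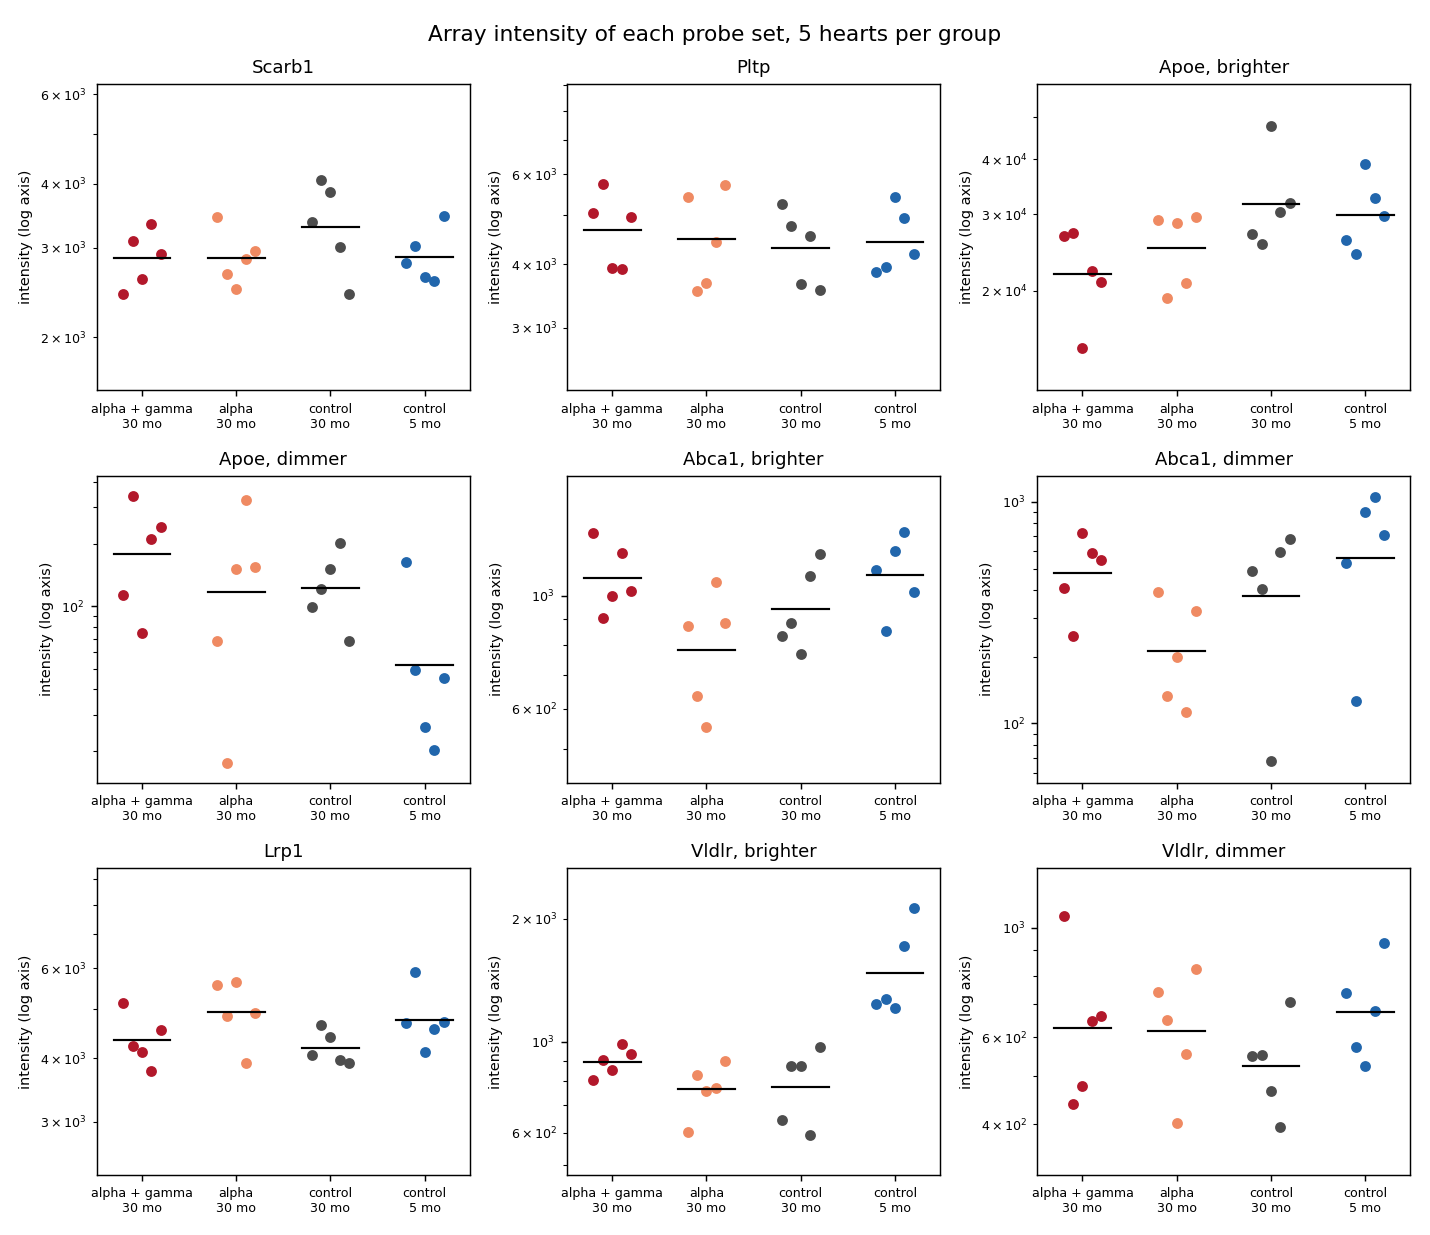
Intensity (log axis) of the 9 probe sets of the 6 genes in hearts of the alpha plus gamma, alpha, old control (30 months) and young control (5 months) groups. Points are single hearts, 5 per group, and bars are group means of log2(intensity + 58) turned back to intensity; the 5 young controls stand above all 15 old hearts at the brighter Vldlr probe set.

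Neither supplement was followed by a called change of Vldlr. At the brighter probe set alpha-plus-gamma hearts read 805, 902, 852, 986 and 933, and alpha hearts read 602, 830.1, 758, 769.7 and 897. These 10 values lay within or close to the range of the old controls (591 to 970.3), and all lay below the lowest young control (1207). The change against old controls was 0.19 ± 0.17 for the mixture (95% interval -0.17 to 0.55, adjusted p = 0.550) and -0.02 ± 0.17 for alpha-tocopherol (95% interval -0.38 to 0.34, adjusted p = 0.948), both from limma. Among the group means of this probe set, the step between young controls and the next group was 2.71 times the pooled standard deviation within groups, and the other steps were at most 0.75 times. At the dimmer probe set alpha-plus-gamma hearts ranged over 439 to 1058 with a median of 647, alpha hearts over 402 to 827 with a median of 649, and old controls over 395 to 708 with a median of 550.2.

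Lrp1 encodes the other endocytic receptor among the members, a large protein that takes up Apoe-bearing remnant particles. Its probe set read 5568, 4849, 5653, 3907 and 4907 in alpha hearts, against 4067, 4647, 4404, 3969 and 3921 in old control hearts. Of the alpha hearts, 4 of 5 lay above every old control and the fifth, alpha replicate 4, lay below them all. The change was 0.23 ± 0.11 (95% interval -0.00 to 0.47, adjusted p = 0.145 from limma) and was not called, in a comparison in which 21.7% of all tested probe sets were. Without alpha replicate 4 it was 0.32 ± 0.11 with an adjusted p of 0.0465, which passed. With the 18S level as a covariate it was 0.01 ± 0.17, the low end of the alternatives, which ranged from 0.01 to 0.32.

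In the other comparisons the Lrp1 changes were smaller in size. Alpha-plus-gamma hearts read 5131, 4223, 4109.5, 3780.5 and 4538, a change of 0.05 ± 0.11 against old controls (adjusted p = 0.846 from limma). Young controls read 4697, 5904, 4105, 4558 and 4702, and the change of old against young controls was -0.18 ± 0.11 (adjusted p = 0.442). Alpha hearts had the highest group mean, followed by young controls, alpha-plus-gamma hearts and old controls, and no neighbours in that order differed by more than 0.78 times the pooled standard deviation.

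Scarb1 encodes scavenger receptor class B type I, which takes cholesteryl ester and tocopherol from high-density lipoprotein without taking up the particle. It read 3368, 4069, 3850.0, 3009.6 and 2436 in old control hearts, against 2803, 3014, 2627, 2582 and 3455 in young control hearts. Old controls had the highest group mean, but they held both the highest and the lowest value of these 10 hearts. The change with age was 0.19 ± 0.13 (95% interval -0.09 to 0.46, adjusted p = 0.508 from limma).
Both supplemented groups overlapped the old controls at Scarb1. Alpha-plus-gamma hearts read 2432, 3094, 2598, 3329 and 2917, and alpha hearts 3448, 2661, 2489, 2849.9 and 2957. The changes against old controls were -0.20 ± 0.13 in each (adjusted p = 0.383 for the mixture and 0.295 for alpha-tocopherol, from limma). The supplemented groups differed from each other by -0.00 ± 0.13, with a 95% interval of -0.28 to 0.27.

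Apoe, the ligand of these receptors, was read by a bright probe set (95356_at) whose mean stood at the 98.7th percentile of all probe sets that are not controls. Alpha-plus-gamma hearts read 26762, 27177, 14793, 22187 and 20975, against 26963, 25582, 47727, 30287 and 31815 in old control hearts. Of the alpha-plus-gamma hearts, 3 of 5 lay below every old control. The level was 0.692 times that of old controls (change -0.53 ± 0.18, 95% interval -0.91 to -0.15), and with an adjusted p of 0.0824 from limma it was not called; 6.43% of all tested probe sets were called in this comparison. Without old control 3, which had the highest value of the 20 arrays, the change was -0.38 ± 0.17 (adjusted p = 0.203), and without alpha-plus-gamma replicate 3, which had the lowest, it was -0.39 ± 0.17 (adjusted p = 0.189).

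Alpha hearts read 29087, 19265, 28591, 20849 and 29548 for Apoe, of which 2 of 5 lay below every old control. The change was -0.34 ± 0.18 (95% interval -0.71 to 0.04, adjusted p = 0.191 from limma). Across the alternatives it ranged from -0.60 to -0.19, without a call. Old control hearts overlapped the young controls (26098, 24251, 39044, 32609 and 29632), with a change of 0.08 ± 0.18 (adjusted p = 0.883). Macrophages make much Apoe, and the summed intensity of 12 macrophage markers was 20257 to 38237 in alpha-plus-gamma hearts, 21973 to 36593 in alpha hearts, 34864 to 42378 in old controls and 29350 to 44165 in young controls. The lowest single marker, Fcgr3, was 44.5 on its dimmest array, and none was at 0. Of 9 tested macrophage genes, C1qb alone was called lower in alpha-plus-gamma hearts and 5 were called lower in alpha hearts; their part in the Apoe values was not tested. The dim Apoe probe set (161321_i_at) read 74.8 to 341 in alpha-plus-gamma hearts, 17.7 to 325 in alpha hearts, 68.2 to 201 in old controls and 20.4 to 163 in young controls. In a fit without the filter on dim probe sets its change with age was 0.72 ± 0.39 (adjusted p = 0.465 from limma), and it correlated with the bright one at r = -0.13.

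Pltp encodes phospholipid transfer protein, and its levels were alike in range in all groups. Alpha-plus-gamma hearts read 5042, 5754, 3929, 3913 and 4949, alpha hearts 5426, 3548, 3673, 4413 and 5707, and old controls 5252, 4752, 3653, 4540.2 and 3554. Young controls read 3853, 3943, 5407, 4929 and 4185. The 4 group means spanned less than the spread within any group, and the steps between neighbours were at most 0.24 times the pooled standard deviation. The changes were 0.12 ± 0.15 for the mixture, 0.05 ± 0.15 for alpha-tocopherol and -0.04 ± 0.15 with age (the lowest of the adjusted p-values from limma was 0.698). Their 95% intervals lay between -0.35 and 0.43.

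Abca1, the exporter, had its widest differences among the 4 fitted comparisons between the supplements, at both probe sets and without a call. At the brighter probe set (94354_at) alpha-plus-gamma hearts read 1325, 905, 998, 1215 and 1023, against 874, 636, 553, 1063 and 885 in alpha hearts. Of the alpha-plus-gamma hearts, 2 of 5 lay above every alpha heart. The difference was 0.44 ± 0.18 (95% interval 0.07 to 0.82, adjusted p = 0.232 from limma), in a comparison in which 0.564% of all tested probe sets were called. At the dimmer probe set (97198_at) alpha-plus-gamma hearts read 409.7, 249, 726, 588 and 549.5, against 391, 133, 199, 112 and 323 in alpha hearts. There 4 of 5 alpha-plus-gamma hearts lay above every alpha heart, and the difference was 0.99 ± 0.48 (95% interval -0.01 to 1.99, adjusted p = 0.318). With the 18S level as a covariate these differences were 0.26 ± 0.23 and 0.28 ± 0.59, the low end of the alternatives. Across these they ranged from 0.26 to 0.55 and from 0.28 to 1.19, without a call.

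Controls lay between or beside the supplemented groups at Abca1. The brighter probe set read 832, 882, 768, 1091 and 1210.1 in old control hearts, against 1126, 851, 1223, 1337 and 1015 in young control hearts, a change of -0.21 ± 0.18 (adjusted p = 0.622 from limma). The dimmer one read 489.7, 406, 67.6, 597 and 679 in old control hearts, against 529, 126, 897, 1049.8 and 712 in young control hearts, a change of -0.50 ± 0.48 (adjusted p = 0.664). Against old controls the brighter probe set changed by 0.19 ± 0.18 with the mixture and by -0.25 ± 0.18 with alpha-tocopherol (adjusted p = 0.572 and 0.322). At the dimmer one these changes were 0.30 ± 0.48 and -0.69 ± 0.48 (adjusted p = 0.753 and 0.319 from limma). These 2 comparisons share the old controls. Over the 20 arrays the Abca1 pair correlated at r = 0.67, and at 0.52 after group means were subtracted.

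**Figure D2:**
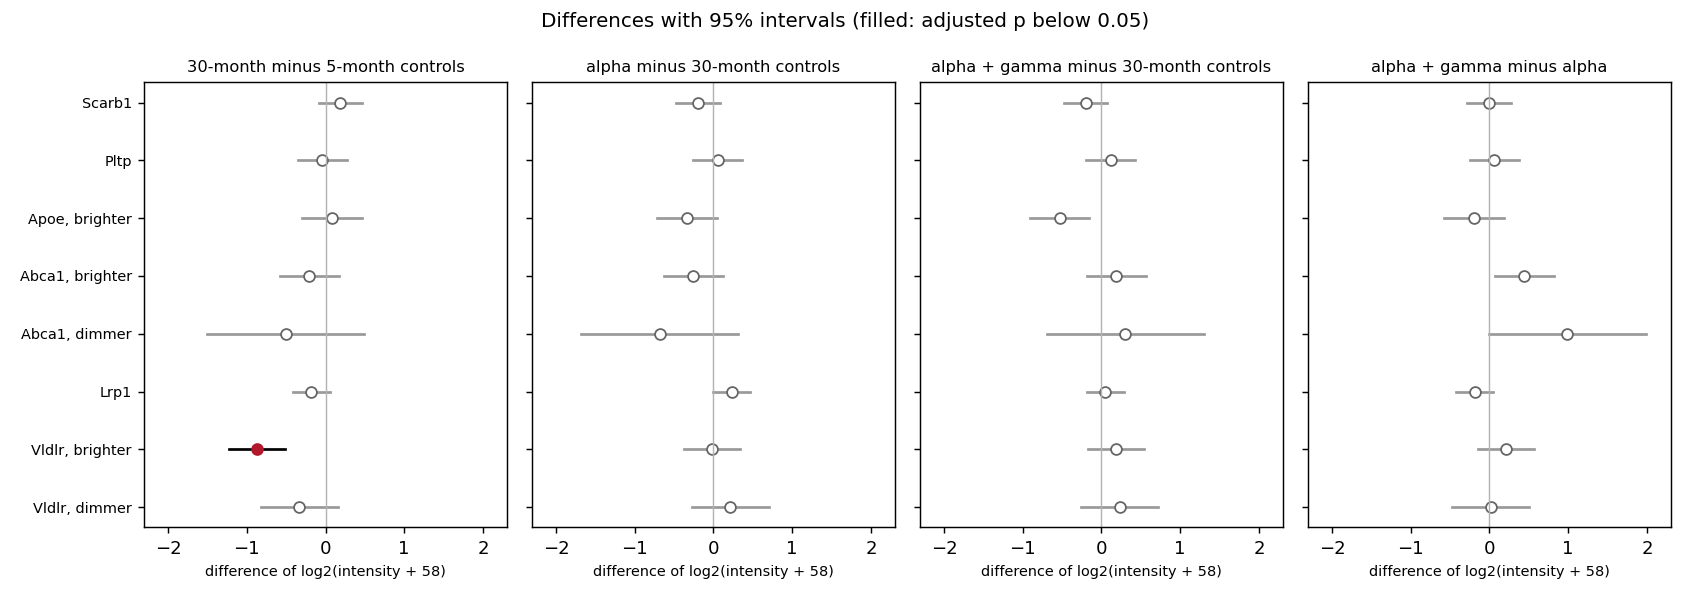
Differences of log2(intensity + 58) with 95% intervals for the 8 tested probe sets, in the 4 comparisons; filled points have an adjusted p below 0.05 from limma, n = 5 hearts per group. The brighter Vldlr probe set with age is the single filled point, and the intervals of the dimmer Abca1 probe set are the widest.

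**Figure D3:**
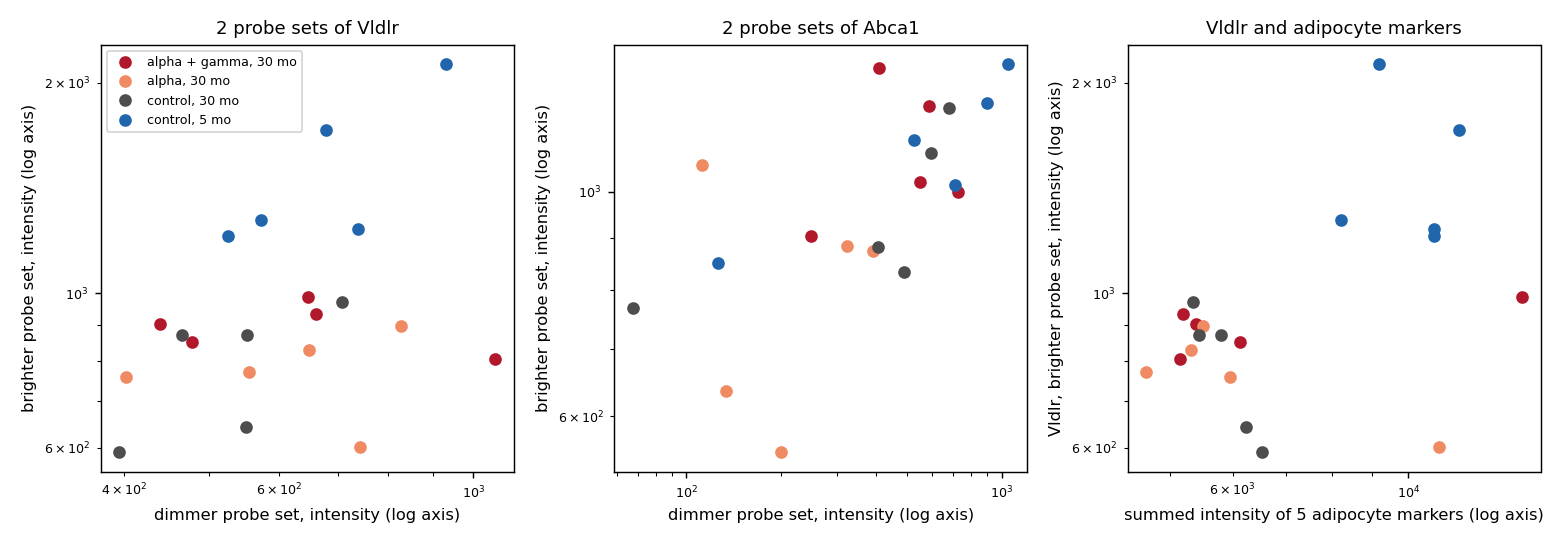
Intensities on log axes, 1 point per heart: the brighter against the dimmer probe set of Vldlr and of Abca1, and the brighter Vldlr probe set against the sum of 5 adipocyte markers. The Abca1 pair rises together over the 20 hearts (r = 0.67) more than the Vldlr pair (r = 0.39), and the 5 young controls stand apart in Vldlr level.

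Genes whose levels were most like each member over the 20 arrays were taken by Pearson's correlation of log2 values, as a description; the arrays, and for Vldlr the age difference, are shared. Vldlr was most like Hsdl2, a dehydrogenase-like protein (r = 0.86, and 0.57 within groups), Pdk4, the kinase that turns off pyruvate dehydrogenase (0.85, and 0.45 within groups), and Corin, the heart protease that activates atrial natriuretic peptide (0.84, and 0.66 within groups). Apoe was most like Tyrobp, a signalling adaptor of myeloid cells (0.78), Rbm42 (0.78) and Cic (0.77). Abca1 was most like Zfx (0.84), Tnpo1 (0.80) and Gdap10 (0.80), and Lrp1 most like Msi1 (0.81), Map2k3 (0.79) and Nadk (0.77). For Scarb1 these were Dhrs7 (0.72), Pfkl (0.71) and Zfp105 (0.66), and for Pltp they were Tuft1 (0.73), Capg (0.67) and Ptpra (0.67).

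Around these 6 genes, 85 other genes of lipoprotein and lipid transport were listed in 5 groups; 59 were on the array under a single symbol and 44 were tested. With age 0 of the 44 were called higher and 3 lower, beside 3.00% higher and 2.38% lower among all 5663 tested genes, each taken at its brightest probe set. The median change of the list was -0.07, against 0.02 over all genes. None of the 3 encodes a lipoprotein receptor. Angptl4, a secreted inhibitor of lipoprotein lipase, averaged 855.5 ± 98.9 in old control hearts and 3229 ± 652 in young control hearts (SD, n = 5 each), a change of -1.83 ± 0.14 (adjusted p = 2.2e-08 from limma). Another Angptl4 probe set changed by -2.17 ± 0.32 and was also called, while the remaining tested one changed by -0.49 ± 0.41 without a call. Lipe, hormone-sensitive lipase, averaged 1558 ± 324 in old control hearts and 2970.1 ± 555 in young control hearts (change -0.91 ± 0.19, adjusted p = 0.00477). Clu, clusterin, a chaperone carried on high-density lipoprotein, averaged 16013 ± 1753 in old control hearts and 22653 ± 2177 in young control hearts (change -0.50 ± 0.10, adjusted p = 0.00314), and its second probe set was also called lower. Without old controls 1 and 4 the Lipe call was lost (-0.82, adjusted p = 0.0581). None of the 12 receptors and receptor helpers, 13 transporters and intracellular transfer genes or 6 nuclear receptor and sterol regulators tested was called with age.

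With alpha-tocopherol 4 of the 44 were called higher and 3 lower, beside 8.69% and 13.7% of all tested genes, with a list median of -0.03 against -0.04. Stard3, a cholesterol transfer protein of late endosomes, averaged 2975 ± 124 in alpha hearts and 4648 ± 255.9 in old control hearts (SD, n = 5 each), a change of -0.63 ± 0.10 (adjusted p = 0.000106 from limma). Cav1, the coat protein of caveolae, was also lower (-0.55 ± 0.13, adjusted p = 0.00580), while its second probe set changed by 0.13 ± 0.23 and was not called. Clu was higher at both probe sets, by 0.38 ± 0.10 and 0.54 ± 0.11. Sdc1, a heparan sulfate proteoglycan that binds remnant particles, averaged 977 ± 156 in alpha hearts and 534 ± 135 in old control hearts (change 0.83 ± 0.24, adjusted p = 0.0160), and without old control 2 its adjusted p was 0.0517. Snx17, which recycles Lrp1 and related receptors to the cell surface, was higher by 0.47 ± 0.15, Lpl, lipoprotein lipase, by 0.33 ± 0.12, and Rxrg, a retinoid X receptor, was lower at -0.56 ± 0.19. These last 3 were near the threshold (adjusted p = 0.0318, 0.0468 and 0.0360) and stayed called in 5, 3 and 3 of 10 fits that left out 1 animal, with adjusted p-values up to 0.0981, 0.120 and 0.104. The second probe sets of Snx17 and Lpl changed by 0.37 ± 0.50 and 0.36 ± 0.16, without a call. With the level of the hybridization controls as covariate 0 of the 7 were called, and with the 18S level 1 was, Stard3; calls over all probe sets fell to 144 and 142, against 1619. All 5 alpha arrays lie above the rest in both measures, and standard errors grew. With these covariates Stard3 changed by -0.56 ± 0.17 and -0.66 ± 0.15, Cav1 by -0.69 ± 0.23 and -0.41 ± 0.21, Clu by 0.15 ± 0.16 and 0.36 ± 0.16, and Lpl by -0.03 ± 0.18 and 0.35 ± 0.19.

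With the mixture 2 of the 44 were called higher and 3 lower, beside 2.63% and 4.22% of all tested genes, with a list median of -0.03 against -0.02. Stard3 was again lower, at 2829.8 ± 149 in alpha-plus-gamma hearts against 4648 ± 255.9 in old control hearts (change -0.70 ± 0.10, adjusted p = 0.000284 from limma), and it stayed called in all 25 alternatives. Its second probe set changed by -0.24 with the mixture and by 0.25 with alpha-tocopherol, with no call in either. Lpl averaged 51353 ± 5890 in alpha-plus-gamma hearts and 38657 ± 5305 in old control hearts (change 0.41 ± 0.12, adjusted p = 0.0360). The second Lpl probe set changed by 0.28 ± 0.16, without a call. Snx17 was higher by 0.54 ± 0.15, and Hspg2, the proteoglycan perlecan, was lower at -0.61 ± 0.18 (adjusted p = 0.0386 and 0.0427). The second Snx17 probe set changed by 0.23 ± 0.50 and was not called. Clu changed by 0.30 ± 0.10 at its brightest probe set, without a call (adjusted p = 0.0661 from limma). The second Clu probe set changed by 0.50 ± 0.11 and was called (adjusted p = 0.00984 from limma). Angptl4 averaged 596 ± 79.6 in alpha-plus-gamma hearts and 855.5 ± 98.9 in old control hearts (change -0.48 ± 0.14, adjusted p = 0.0396). Its other tested probe sets changed by -0.50 ± 0.32 and -0.04 ± 0.41, without a call. Lpl, Snx17, Hspg2 and Angptl4 stayed called in 4, 3, 2 and 2 of 10 fits that left out 1 animal, with adjusted p-values up to 0.0923, 0.117, 0.102 and 0.0991.

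Between the supplements 0 of the 44 were called higher and 1 lower, beside 0.265% and 0.194% of all tested genes, with a list median of 0.03 against 0.02. That gene was Angptl4, at 596 ± 79.6 in alpha-plus-gamma hearts and 940.3 ± 51.5 in alpha hearts (change -0.62 ± 0.14, adjusted p = 0.0421 from limma). The call was lost in each of the 10 fits that left out 1 animal (adjusted p = 0.0590 to 0.105 from limma). The second brightest Angptl4 probe set changed by 0.03 ± 0.32 and the remaining tested one by -0.19 ± 0.41, without a call in either.

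Cd36, the fatty acid and lipoprotein receptor, Abcg1, a cholesterol exporter, and Nr1h3, which encodes liver X receptor alpha, were not called in any comparison. With age they changed by -0.35 ± 0.15, -0.16 ± 0.32 and -0.24 ± 0.18. Ttpa, the liver tocopherol transfer protein, was not analysed here. Transcripts of liver secretory genes were also measured: Alb, albumin, changed by -4.33 ± 0.64 with the mixture and by -4.71 ± 0.64 with alpha-tocopherol, and by 1.79 ± 0.64 with age (adjusted p = 0.119 from limma). Only the 2 supplement changes of Alb were called. With the level of the hybridization controls as covariate the alpha-tocopherol one was -3.15 (adjusted p = 0.117 from limma) and no longer called. With the 18S level it was -5.57 (adjusted p = 0.00879), and it stayed called in 23 of 24 alternatives. The sum of 8 of 11 liver markers on the array was 1559 to 3078 in alpha-plus-gamma hearts, 1382 to 2309 in alpha hearts, 4171 to 18772 in old controls and 3061 to 10594 in young controls. Among the tested apolipoprotein genes, Apoa2 belongs to that marker list; the part of liver RNA in the apolipoprotein values was not tested.

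**Figure D4:**
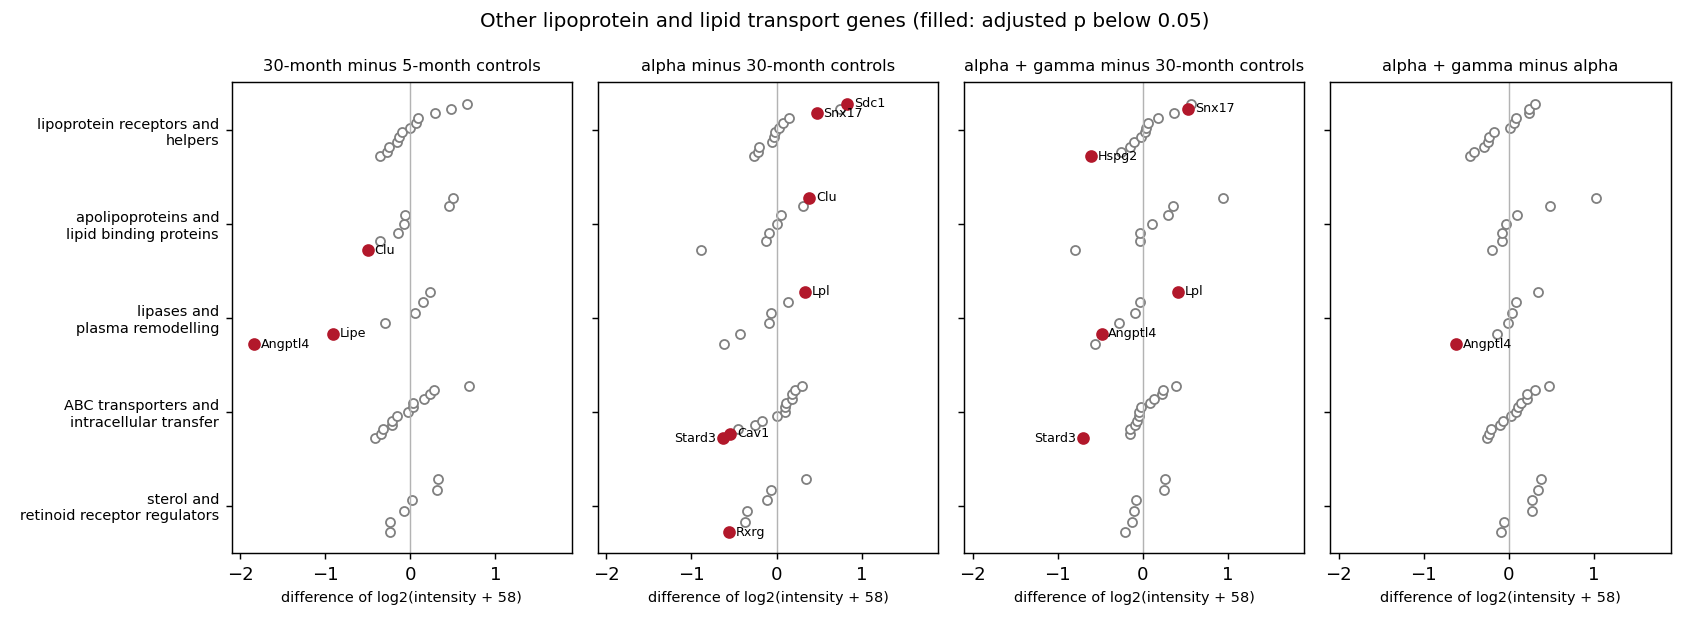
Differences of log2(intensity + 58) of the 44 tested genes of 5 groups of lipoprotein and lipid transport genes, in the 4 comparisons, 1 point per gene at its brightest probe set, n = 5 hearts per group. Filled, named points have an adjusted p below 0.05 from limma; Angptl4 with age, at -1.83, lies farthest from 0.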

How the data were processed

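Per the labels' protocols, polyadenylated RNA from frozen hearts was made into biotin-labelled complementary RNA, and each of the 20 samples went on its own array. The deposited table gives the authors' linear intensity for 12488 probe sets, ranging from 0.4 to 275793, with the software not given in the sources used here. The mean intensity after trimming 2% at both ends was 1501.0 to 1501.1 on every array, and medians of log2 values spanned 0.115, so the deposited scaling was kept. Detection calls were not used here.

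Besides 66 controls there are 12422 probe sets, of which 10833 carry 1 symbol, 396 several and 1193 none. After the dimmest 40% was dropped, 7453 were tested as log2(intensity + 58), the 58 being the 10th percentile of intensity. The fit was made in R 4.3.3 with limma 3.58.1 on group means over 20 arrays (16 residual degrees of freedom, eBayes with trend and robust settings), and tests are two-sided. Member symbols were matched to RefSeq (GRCm38.p6). The steps were tested on simulated data with changes of 0.5 or 1 planted between old and young controls. Of these, 27% and 69% were called, and 3.03% of the calls were false.

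The members, lists and alternatives were chosen with earlier results of these data known. Named genes are all members, up to 3 called changes per list and comparison, 7 fixed genes, and the 3 genes most like each member. The labels number the animals from 1 to 5 in each group. Same-numbered animals correlated at -0.08 to 0.10 after group means were subtracted. This shows no pairing by number but cannot exclude one, and animals were taken as unpaired.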

Additional observations from a re-analysis of the deposited data

Results flagged for a closer look

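At the dimmer Abca1 probe set, old control 3 read 67.6 (6.97 on the log2 scale), against 406 to 679 in the other 4 old controls. Its gap to the nearest of them was 0.738 of the group's range, above the critical value of Dixon's test for 5 samples. It was the 1 group flagged of the 36 groups screened, and chance flags about 1 in 20. At the brighter Abca1 probe set the same heart was also the lowest old control, at 768, within the range of the alpha hearts.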

How the results depend on the processing

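Alternatives were other pseudocounts, filters and scalings, other variance models, fits without the groups not compared, a replicate block, array covariates, and animals left out. Of 776 changes of member probe sets under these, 25 were called: 24 were the brighter Vldlr probe set with age and 1 was Lrp1 with alpha-tocopherol. None changed sign with a call in the main fit or the alternative, or with both values more than 1 standard error from 0. In all, 44 changed sign, and their direction is not read. Some of these moved far: the dimmer Abca1 probe set with alpha-tocopherol was -0.69 in the main fit and ranged from -1.13 to 0.34. The count of called members stayed at 1 with age (0 without old controls 1 and 4) and at 0 in the other comparisons, with 0 to 1 for alpha-tocopherol when 1 animal was left out. The Vldlr change lay between -0.98 and -0.67. With the replicate block it was -0.88 ± 0.16 (adjusted p = 0.00285 from limma).

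The count of called pathway genes moved more. With age it was 7 with array weights, against 3, and 3 to 4 with 1 animal left out. With alpha-tocopherol it was 0 with the hybridization control covariate and 1 with the 18S covariate, against 7, and 4 to 7 with 1 animal left out; Lpl turned sign with the hybridization control covariate, at -0.028 ± 0.18, while Stard3 lay between -0.66 and -0.56 under every alternative. With the mixture, against 5, it was 1 with no filter, 3 with no variance trend and no robust setting, 2 with the replicate block, 1 without old controls 1 and 4, 3 without young control 3 and old control 3, 1 and 2 with the covariates, and 1 to 4 with 1 animal left out. Between the supplements, against 1, it was 0 with the larger pseudocount, no filter, the dimmest 20% left out, no variance trend and no robust setting, array weights, only the compared groups, the replicate block, either covariate, or any 1 animal left out. The cause was not tested. The replicate block changed no call of a member. Dim probe sets, such as the dimmer one of Abca1 with a standard error of 0.48, limit what could be called.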
